A study of Mus musculus with 2 samples.

Results

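The 37 genes described here belong to the heat shock response and the unfolded protein response. They were chosen by gene symbol for their known function, and all 37 were found among the 31253 gene features of the files. A group of 13 works in the cytosol and nucleus (Hspa1a, Hspa1b, Hspa4, Hspa8, Hsp90aa1, Hsp90ab1, Hsph1, Hspb1, Dnaja1, Dnajb1, Dnajb4, Bag3 and Hsf1), 3 in mitochondria (Hspa9, Hspd1 and Hspe1) and 21 in or on behalf of the endoplasmic reticulum, from the chaperone Hspa5 to the stress-induced gene Trib3. Ddit3 had 2 gene identifiers in the files, of which 1 held every UMI. They were measured in single cells of the mouse abdominal aorta with the BD Rhapsody system, which tags each captured RNA molecule with a cell barcode and a unique molecular identifier (UMI).

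The study compared 2 libraries, 1 per group. The WT-AAA library came from C57BL/6J mice, and the KO-AAA library from mice with a global deletion of Gsdme, the gene of gasdermin E, known for opening pores in cell membranes during lytic death. In both groups an abdominal aortic aneurysm (AAA) was induced by infusion of PPE, the usual abbreviation for porcine pancreatic elastase, so neither library is from an uninjured aorta. Ages, the time after infusion, the number of mice per library and the strain background of the deletion are not stated in the labels. Tissue of both groups was digested for 45 min at 37 degrees C before capture. Because the design has 1 library per group, no test of genotype is possible, and every interval below covers counting error only.

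In the heat shock response, unfolded protein in the cytosol releases the transcription factor HSF1, which binds heat shock elements and raises the Hsp70, Hsp90, Hsp40 and small heat shock chaperones. In the unfolded protein response, the membrane sensors IRE1, PERK and ATF6 detect misfolded protein inside the endoplasmic reticulum and act through XBP1, ATF4 and cleaved ATF6 on chaperones, disulfide isomerases and degradation factors. Secretory cells run the second program at a high basal level, and the first can also be set off by warming and handling of tissue.

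Some promoters of the cytosolic and of the endoplasmic reticulum genes hold different motifs, and these are shown here because they do not use expression. Most matched genes of each of these groups held none of the motifs searched for. RefSeq promoters of build GRCm38.p6, the build also called mm10, were matched for 29 of the 37 genes, 9 of them cytosolic and 18 of the endoplasmic reticulum. Some genes have more than 1 promoter there, and a gene was counted when any of them held the motif. In the 250 bases before the start, searched on both strands, the heat shock element GAANNTTC was found for 4 of 9 cytosolic genes, for 2 of 2 mitochondrial genes, and for 0 of 18 endoplasmic reticulum genes. Counted the same way, it was found for 7.73% of all 27025 genes, and in 6.69% of all 32851 promoters. GAANNTTC reads the same on both strands, and the opposite order, TTCNNGAA, was searched for only within the longer form described below. Hsph1 and Dnajb4, counted here as without the element, hold TTCNNGAA in their 250 bases. How many other genes hold that order was not counted. In the windows below, each of 30 bases and written 5′ to 3′ on the strand of the gene, capitals mark the fixed letters of the element.
Hspa1a, chr17:34972242-34972271, minus strand: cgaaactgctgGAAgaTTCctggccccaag
Hspa1b, chr17:34959324-34959353, minus strand: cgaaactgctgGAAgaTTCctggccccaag
Hspb1, chr5:135887791-135887820, plus strand: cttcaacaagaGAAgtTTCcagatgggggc
Hspb1, chr5:135887811-135887840, plus strand: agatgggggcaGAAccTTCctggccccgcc
Dnaja1, chr4:40722333-40722362, plus strand: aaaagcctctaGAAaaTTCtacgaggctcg
Hspe1, chr1:55088053-55088082, plus strand: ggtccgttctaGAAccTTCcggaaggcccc
Hspd1, chr1:55088053-55088082, minus strand: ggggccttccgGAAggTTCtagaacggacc
The element began 104 bases before the start of both Hspa1a and Hspa1b. Hspb1 had it 2 times, beginning 117 and 97 bases before the start. Hspd1 and Hspe1 lie head to head on chromosome 1 and share 1 element, read here from opposite strands. Their windows also matched a longer form of 3 alternating GAA and TTC units, each 2 bases apart, which 0.514% of all genes held and no matched cytosolic gene did.

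The endoplasmic reticulum stress element, CCAAT and CCACG with 9 bases of any kind between them, was found for 7 of 18 endoplasmic reticulum genes, for 0 of 9 cytosolic genes and for 0.13% of all genes, or in 0.113% of all promoters. The windows are shown so that the shared letters can be compared, again with the fixed letters in capitals. In Calr, in Creld2 and in the second window of Hsp90b1 the element runs on the opposite strand and reads as its reverse complement.
Hspa5, chr2:34772020-34772049, plus strand: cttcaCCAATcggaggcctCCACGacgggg
Hsp90b1, chr10:86705632-86705661, minus strand: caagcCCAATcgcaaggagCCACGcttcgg
Hsp90b1, chr10:86705527-86705556, minus strand: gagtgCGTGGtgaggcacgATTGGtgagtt
Dnajc3, chr14:118937822-118937851, plus strand: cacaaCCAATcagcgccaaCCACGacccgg
Calr, chr8:84847069-84847098, minus strand: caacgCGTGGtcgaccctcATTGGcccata
Canx, chr11:50325794-50325823, minus strand: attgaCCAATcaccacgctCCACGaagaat
Pdia6, chr12:17266486-17266515, plus strand: agagaCCAATgaaaggcggCCACGgcgtgg
Creld2, chr15:88819515-88819544, plus strand: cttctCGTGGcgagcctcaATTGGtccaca
Herpud1, which encodes a membrane protein of the degradation machinery, held the related element ERSE-II, in which ATTGG and CCACG stand 1 base apart, found for 0.037% of all genes, and the C/EBP-ATF element TGATGCAA, found for 0.918%.
Herpud1, chr8:94386368-94386397, plus strand: cgggcgctgATTGGgCCACGttggacactg
Herpud1, chr8:94386306-94386335, plus strand: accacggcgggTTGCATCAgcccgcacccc
The element TGACGTGG was found for none of the 29 matched genes and for 0.603% of all genes. These matches describe letters in the windows and say nothing of binding in these cells.

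Longer stretches are shown for 2 cytosolic genes whose levels in fibroblast-like cells differed between the libraries in opposite directions, Hspa1a and Hspb1. Each is the 150 bases before the start and overlaps no annotated exon.
Hspa1a, chr17:34972157-34972306, minus strand: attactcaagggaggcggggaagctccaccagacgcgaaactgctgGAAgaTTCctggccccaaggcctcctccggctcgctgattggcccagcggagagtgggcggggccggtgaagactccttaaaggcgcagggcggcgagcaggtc
Hspb1, chr5:135887769-135887918, plus strand: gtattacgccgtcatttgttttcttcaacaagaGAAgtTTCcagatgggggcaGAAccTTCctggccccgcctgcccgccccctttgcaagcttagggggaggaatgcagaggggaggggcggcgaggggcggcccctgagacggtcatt
Hspa1a (chr17:34969190-34972156) and Hspa1b (chr17:34956436-34959238) lie on the same strand of chromosome 17 with 9951 bases between them. Their 250 bases before the start were identical at 247 positions. The 2 genes are near-identical copies, so the split of UMIs between them is uncertain and their sum is given for the fibroblast-like cells and for the shares of cells. Manf overlaps Rbm15b on the same strand, so reads from the shared part are likewise uncertain. Hspd1 and Hspe1 overlap on opposite strands.

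The WT-AAA library held 38988898 UMIs in 7736 barcodes and the KO-AAA library 52532964 in 9034, of which 7619 and 8784 passed the cell filters. The median cell had 3835 UMIs in WT-AAA and 4062 in KO-AAA. The libraries shared 65 barcodes among kept cells. Levels are given as CPM, the UMIs of a gene per 1000000 UMIs of a class and library. Where a pair of values is given, WT-AAA comes first. Gsdme was read at 5.53 CPM in WT-AAA and 2.55 in KO-AAA, from 215 and 133 UMIs. Which part of the gene was deleted is not stated, so its remaining UMIs check nothing. Clustering without the genes of these lists gave 24 clusters, of which 17 were named from marker genes. A class named here as fibroblast-like or macrophage-like is a cluster led by such markers. The 10 classes with at least 100 cells in each library were compared, and smaller classes are described only. SMC-like cells also held fibroblast markers, at 57132 and 34334 against SMC markers at 6838 and 10075. A gene was counted as measured in a class with at least 30 UMIs and 10 CPM in the higher library. It was called higher or lower in KO-AAA where the ratio was past 1.5-fold and its 95% interval lay on one side of 1. Fewer cells that carry a transcript and fewer transcripts per cell cannot be told apart in such summed levels.

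The cytosolic heat shock genes stood highest in mesothelial-like cells and, among the 10 large classes, in resident-type macrophage-like and endothelial-like cells. Their 13 levels summed to 14886 CPM in WT-AAA and 22549.6 in KO-AAA in mesothelial-like cells (41 and 58 cells), to 11958 and 11193 in resident-type macrophage-like cells, and to 11269 and 9691 in endothelial-like cells. Neutrophil-like cells had 4466 and 3281, and plasma cell-like cells (16 and 42 cells) 2384 and 3757. Of the 13 genes, 7 had their highest level in mesothelial-like cells in both libraries. In these cells 13 immediate early genes, which also respond to tissue dissociation, summed to 15617 and 33199. The 7 mesothelial markers summed to 6046 and 4482 there, and the 13 fibroblast markers to 21129 and 15829. The part of these in the mesothelial-like values was not tested. Among the 10 large classes, 4 of the 13 were highest in resident-type macrophage-like cells in both. How many of all genes rank highest in these classes was not counted.

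**Figure D1:**
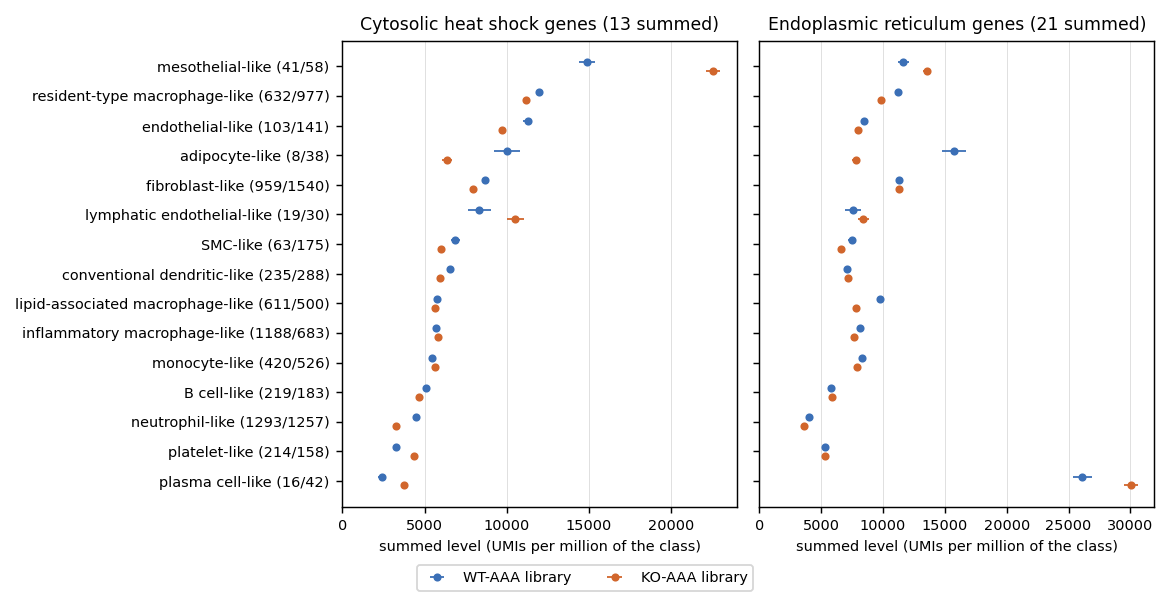
Summed level of the 13 cytosolic (left) and 21 endoplasmic reticulum genes (right) in CPM of each named class, with the cells per class in brackets (WT-AAA/KO-AAA). Points are single libraries and bars 95% Poisson intervals. Cytosolic genes peak in mesothelial-like cells and endoplasmic reticulum genes in plasma cell-like cells, in both libraries.

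Hspa1a and Hspa1b, the stress-inducible Hsp70 chaperones, spread widely among the leukocytes. In resident-type macrophage-like cells Hspa1a was 1363 CPM in WT-AAA and 1461 in KO-AAA, and Hspa1b 1064 and 1039.8. In B cell-like cells Hspa1a was 48.4 and 113, the lowest of the large classes in both libraries, and Hspa1b 83.5 and 113, in WT-AAA level with the 83.5 of monocyte-like cells. In WT-AAA endothelial-like and neutrophil-like cells came next in Hspa1a, at 470.3 (95% interval 419 to 526) and 443 (416 to 471), and these 2 neighbours overlapped. In KO-AAA platelet-like cells came next at 544, above 429 and 420.3 in the same 2 classes. Neutrophil-like cells reached that level through few cells. The 5% of neutrophil-like cells richest in Hspa1a and Hspa1b held 93.1% of the UMIs of both genes in WT-AAA and 94.4% in KO-AAA. In resident-type macrophage-like cells the same 5% held 28.6% and 26.7%.

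The shares of cells showed the same contrast at a fixed depth. With every cell thinned to 1000 UMIs, a UMI of Hspa1a or Hspa1b was found in 67.9% of WT-AAA cells (95% exact interval 64.1 to 71.6) and 69% of KO-AAA cells (66 to 71.9) of the resident-type macrophage-like class. The shares were 8.37% and 6.87% in neutrophil-like and 9.85% and 4.91% in B cell-like cells. Neutrophil-like cells had the lowest share of the large classes in WT-AAA and B cell-like cells in KO-AAA. No class is known to lack these transcripts, so the lowest shares stand in for a background. Before thinning, the shares were 93.8% and 95.3% in resident-type macrophage-like and 13.7% and 11.4% in neutrophil-like cells, whose median depths were 7474 and 9180 against 1660 and 1579 UMIs. Thinning left out cells of under 1000 UMIs, which kept 1159 of 1293 and 1092 of 1257 neutrophil-like cells and 627 of 632 and 970 of 977 resident-type macrophage-like cells. Over all kept cells the thinned shares were 24.7% of WT-AAA cells (95% exact interval 23.7 to 25.8) and 27.7% of KO-AAA cells (26.7 to 28.7).

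Hspb1, a small heat shock protein known for binding unfolding proteins and actin, was high in mesothelial-like, endothelial-like and fibroblast-like cells. It was 1734 CPM in WT-AAA and 3625 in KO-AAA in mesothelial-like cells, 432 and 605 in endothelial-like and 385 and 773 in fibroblast-like cells. In neutrophil-like, monocyte-like, lipid-associated and inflammatory macrophage-like cells it stayed between 10.2 and 14.8. Bag3, the cochaperone that couples Hsp70 to autophagy, was likewise highest in fibroblast-like and lowest in neutrophil-like cells among the large classes, with 522 and 456 in fibroblast-like and 32 and 26.5 in neutrophil-like cells. The constitutive Hspa8 and Hsp90ab1 varied less between the large classes than Hspb1 and Bag3 did. Hsp90ab1 varied 5.25-fold in WT-AAA and 7.42-fold in KO-AAA, more than the inducible Hsp90aa1, at 4.47-fold and 2.7-fold. Hspa8, the constitutive Hsp70, ranged from 768 and 430.4 in neutrophil-like to 2987 and 2391 in resident-type macrophage-like cells. Hsp90ab1, the constitutive Hsp90, ranged from 646 and 407 in neutrophil-like to 3395 and 3024 in endothelial-like cells.

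The endoplasmic reticulum genes had another order, led by plasma cell-like cells. In plasma cell-like cells, which make antibody, the 21 levels summed to 26104 CPM in WT-AAA and 30031 in KO-AAA, and 13 of the 21 genes had their highest level there in both libraries. Xbp1, the transcription factor of the IRE1 branch that plasma cells need, was 2448 and 3029 there and 88.5 and 78.1 in B cell-like cells. Hsp90b1, the Hsp90 of the endoplasmic reticulum, was 7436 and 11164, and Creld2, a stress-induced isomerase-like protein, 1001 and 1023 against 67.5 and 80.4 in fibroblast-like cells. These plasma cell values rest on 16 and 42 cells, in which the 7 plasma cell markers summed to 106562 and 28379.6 and the fibroblast markers to 839 and 4975. The part of these in the plasma cell values was not tested. Among the large classes fibroblast-like cells had the highest level of 7 of the 21 genes in both libraries. Fibroblast-like cells summed to 11272 and 11260, and resident-type macrophage-like cells to 11219 and 9839. Neutrophil-like cells were at the other end, with 4019.5 and 3616, and 12 of the 21 genes were lowest there among the large classes in both libraries. How many of all genes rank highest or lowest in these classes was not counted.

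Hspa5, the BiP chaperone that holds the sensors inactive, was 3598 CPM in WT-AAA and 3006 in KO-AAA in resident-type macrophage-like cells, 3072 and 2778 in fibroblast-like and 1192 and 1252 in B cell-like cells. Calr, the calcium-binding lectin chaperone, ran from 276 and 270.3 in neutrophil-like to 1285 and 1319.8 in fibroblast-like cells. Some genes departed from this order. Ddit3, which encodes CHOP, was 38.8 and 43 in neutrophil-like and 16.9 and 18.7 in fibroblast-like cells, although the neutrophil-like class was the lowest for 12 of the 21 genes. Edem1, a lectin that sends misfolded glycoproteins to degradation, was 306 and 251 in monocyte-like and 82.4 and 76.5 in fibroblast-like cells. Atf6, a sensor, was 303 and 314 in monocyte-like and 105 and 86.6 in fibroblast-like cells.

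The order of classes in WT-AAA and KO-AAA was close for most genes and not for some. Over the 10 large classes, Spearman's rho between the levels of a gene in WT-AAA and in KO-AAA had a median of 0.95 for the endoplasmic reticulum genes and 0.87 for the cytosolic genes. The lowest values were 0.42 for Creld2 and 0.50 for Hsf1, and Hspa1a had 0.60, Atf4 0.65 and Hspb1 0.68. These correlations are a description of 10 points that share cluster definitions and library totals. The dissociation-sensitive immediate early genes followed in part. Over the same classes, their summed level had a rho of 0.55 in WT-AAA and 0.56 in KO-AAA with the cytosolic sum, and 0.59 and 0.60 with the endoplasmic reticulum sum.

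In fibroblast-like cells, the inducible Hsp70 genes were lower and the small heat shock gene Hspb1 was higher in the KO-AAA library. Hspa1a was 412 CPM in WT-AAA and 195 in KO-AAA (95% intervals 398 to 425 and 188 to 201), a ratio of 0.474 (95% interval 0.452 to 0.496). Hspa1b was 373 and 219.9, a ratio of 0.59 (95% interval 0.563 to 0.618). Hspb1 was 385 and 773, a ratio of 2.01 (95% interval 1.93 to 2.08). These 3 were the called genes of the 13, 1 higher and 2 lower, against 3.53% of all measured genes called higher and 8.25% called lower in this class. The other cytosolic genes lay nearer to 1. Hsp90aa1, the inducible Hsp90, was 1293 and 1249.8, and Dnajb1, the inducible Hsp40 partner of Hsp70, 366 and 295. Hspa8 was 1975 and 1613 and Hsph1, a nucleotide exchange factor of Hsp70, 209 and 145. The median log2 ratio of KO-AAA over WT-AAA over the 13 genes was -0.19, beside -0.12 over all measured genes.

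Both fibroblast clusters showed these differences. The cluster led by Sema3c and Cd55 held 46.6% of the WT-AAA and 60.1% of the KO-AAA fibroblast-like cells, and the cluster marked by C7 the rest. Hspa1a was 407 and 191 in the first cluster and 416 and 202 in the second. Hspb1 was 408 and 833 in the first and 361 and 662 in the second. The Hspa1a difference was larger in the richest cells. The 5% of fibroblast-like cells richest in Hspa1a and Hspa1b held 49.1% of the UMIs of both genes in WT-AAA and 37.8% in KO-AAA. Summed over both genes, the level was 784 and 415 with these cells and 424 and 276 without them, and the median cell stood at 249 and 202. The Hspb1 difference lay in the bulk of the cells, with medians of 239 and 526. At 1000 UMIs per cell, 34.1% of WT-AAA cells (95% exact interval 31.1 to 37.2) and 27.2% of KO-AAA cells (25 to 29.6) had a UMI of Hspa1a or Hspa1b. Without thinning the shares were 75.7% and 75.6%.

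Some other measures also differed between the libraries in fibroblast-like cells. The 13 immediate early genes summed to 30346 and 24793, and the median depth was 8479 and 10205 UMIs per cell. The median mitochondrial share was 2.66% and 3.68%, and it was higher in KO-AAA in 10 of the 10 large classes. The 8 inflammatory macrophage markers, all seen in both libraries, summed to 457 and 234. The 8 resident-type macrophage markers differed little, at 715 and 699, as did the 8 lipid-associated markers, at 1229 and 1233. The 7 markers of mesothelial cells, where Hspb1 was highest, summed to 115 and 106. The part of these measures in the Hspa1a and Hspb1 values was not tested.

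**Figure D2:**
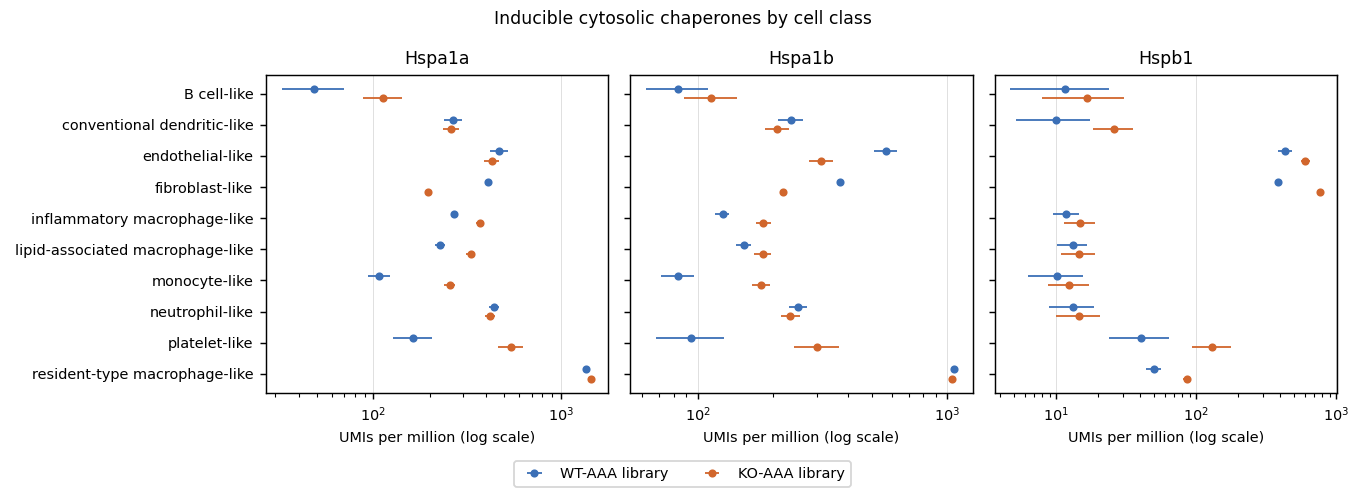
Level of Hspa1a, Hspa1b and Hspb1 in CPM (log scale) in the 10 large classes. Points are single libraries and bars 95% Poisson intervals. In fibroblast-like cells the KO-AAA point lies below WT-AAA for Hspa1a and Hspa1b and above it for Hspb1.

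The endoplasmic reticulum genes of fibroblast-like cells lay within the threshold except for Manf under other settings. None of the 20 measured genes was called, their median log2 ratio was 0.01, and their summed level was 11272 and 11260. Hspa5 was 3072 and 2778, Hsp90b1 2155 and 2299 and Calr 1285 and 1319.8. Manf, a secreted factor induced by stress of the endoplasmic reticulum, lay farthest above 1, at 215 and 316, a ratio of 1.47 (95% interval 1.4 to 1.55). Herpud1 lay farthest below, at 238 and 187. Scaling moves this class more than others: with trimmed mean of M-values (TMM) factors every log2 ratio is 0.17 higher, all measured genes then have a median of 0.05, and Hspa5 turns from -0.15 to 0.02. Manf is then past 1.5-fold, at a log2 ratio of 0.72 with TMM and 0.72 with median-of-ratios factors. Without rescaling its ratio was 1.58 (95% interval 1.46 to 1.7) in the Sema3c cluster and 1.43 (95% interval 1.33 to 1.54) in the C7 cluster.

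Lipid-associated macrophage-like cells, the foamy Trem2 and Gpnmb type, had lower values in KO-AAA for most endoplasmic reticulum genes. Of 20 measured genes, 18 lay below 1 and 2 above, with a median log2 ratio of -0.36 beside -0.06 over all genes. Their sum was 9774 in WT-AAA and 7804 in KO-AAA, a ratio of 0.798 (95% interval 0.787 to 0.81). The called genes were 3, all lower in KO-AAA, against 4.31% of all measured genes called lower and 2.77% called higher. Creld2 was 74.7 and 40.4, a ratio of 0.541 (95% interval 0.444 to 0.658). Pdia4, a disulfide isomerase, was 113 and 66.6, a ratio of 0.589 (95% interval 0.504 to 0.687). Hyou1, the nucleotide exchange factor of BiP, was 76.5 and 47.7, a ratio of 0.623 (95% interval 0.517 to 0.749). Below the 1.5-fold threshold, Hspa5 was 2841 and 2112, Calr 1155 and 878, Hsp90b1 1615 and 1315 and Xbp1 208 and 164. The median cell held Hspa5 at 2340.1 and 1663. Atf6 (168 and 169) and Atf4 (224 and 232) were the 2 above 1.

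The cytosolic genes of the same cells differed less. None of the 12 measured genes was called. Their median log2 ratio was 0.12 and their sum 5733 and 5626. Hspa1a was 228 and 331, which is past 1.5-fold with TMM (log2 ratio 0.59) and median-of-ratios factors (0.59). Its near-identical copy Hspa1b had 0.30 and 0.31 with these factors, within the threshold, and the split of UMIs between them is uncertain. Hsp90aa1 was 824 and 948 and Hspa8 1763 and 1480.5. Beside this, the 8 lipid-associated markers summed to 11891 and 11786, the 8 resident-type markers to 1708 and 2074 and the immediate early genes to 17143 and 15374. Median depth was 7413 and 6862 UMIs per cell. The part of these in the endoplasmic reticulum values was not tested.

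Hyou1 and Creld2 were lower in the KO-AAA library in several other myeloid classes. Each was called lower in 4 of the 10 classes. Hyou1 was called in the inflammatory (55.6 and 34), lipid-associated and resident-type (61.7 and 38.5) macrophage-like cells and in monocyte-like cells (91.3 and 55.2), and lay below 1 in all 9 classes where it was measured, also with TMM factors. Creld2 was called in lipid-associated and resident-type (56.7 and 37.3) macrophage-like, monocyte-like (87.4 and 52.9) and neutrophil-like cells (31.5 and 20.1). The resident-type value stayed past 1.5-fold in 6 of 13 alternatives, and in neutrophil-like cells thinning to 1000 UMIs per cell turned it to a log2 ratio of 0.25. It lay above 1 in fibroblast-like (67.5 and 80.4) and B cell-like cells (41.7 and 66.4). Beside these calls, 3.03% of all measured genes of inflammatory macrophage-like and 5.6% of monocyte-like cells were called lower. Hspa5 lay below 1 in 9 of 10 classes, with ratios down to 0.743 and none called, and in 8 of 10 with TMM factors. The called endoplasmic reticulum genes that were higher in KO-AAA were Dnajb9 (112 and 181) and Dnajc3 (119 and 186), 2 J-domain cochaperones, both in B cell-like cells, where 7.39% of all measured genes were called higher. The resident-type macrophage markers in the same class, with Cd163 at 0 in WT-AAA, summed to 305 and 2266, and Dnajb9 was 947 and 826 in resident-type macrophage-like cells. Their part in the B cell-like values was not tested. With each library clustered on its own, Dnajc3 in B cell-like cells had a log2 ratio of -0.65.

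**Figure D3:**
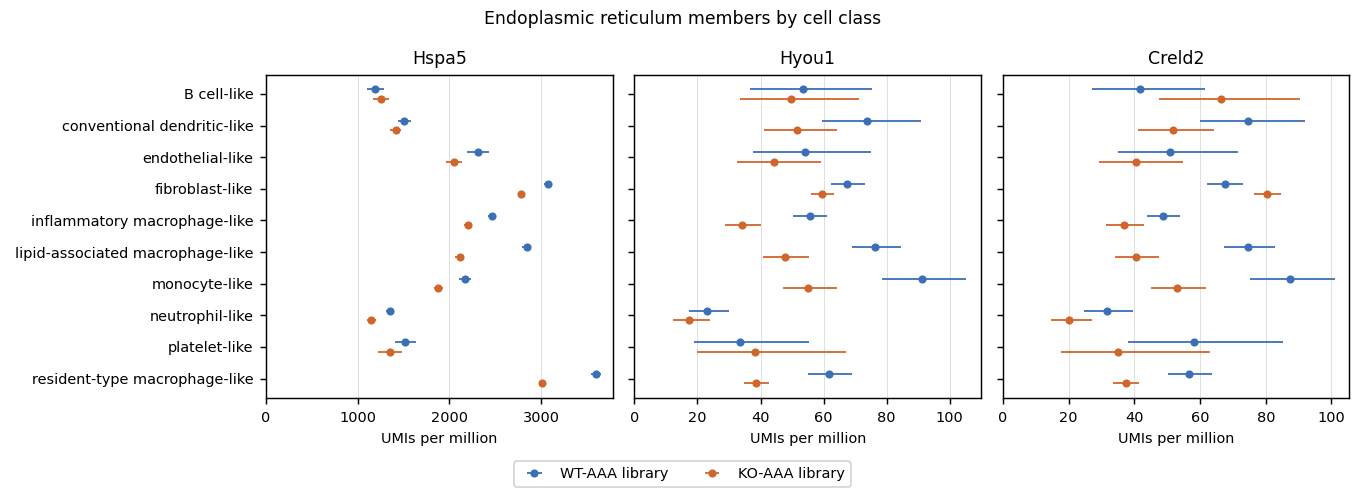
Level of Hspa5, Hyou1 and Creld2 in CPM in the 10 large classes. Points are single libraries and bars 95% Poisson intervals. In lipid-associated macrophage-like cells the KO-AAA point lies below WT-AAA for all 3 genes, and in fibroblast-like cells Creld2 lies above.

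Resident-type macrophage-like cells had high cytosolic levels with little difference between libraries. Hspa1a, Hsp90aa1 (1822 and 1855) and Dnajb1 (331 and 315) were not called, and the median log2 ratio over 12 measured genes was -0.04 beside -0.06 over all genes. Hspb1 was the 1 cytosolic gene called, at 50 and 86.7, a ratio of 1.73 (95% interval 1.5 to 2.01), where 2.6% of all measured genes were called higher and 3.65% lower. Its UMIs lay in few cells, with 64.8% and 67.3% in the richest 5%, while the 13 fibroblast markers summed to 650.3 and 567. Of the endoplasmic reticulum genes 17 of 20 lay below 1, with a median of -0.19 and a sum of 11219 and 9839. Hyou1 and Creld2 were the 2 called. Hspa5 was 3598 and 3006 and Xbp1 275 and 209. Ddit3 went the other way, at 21.2 and 31.8, a ratio of 1.5 (95% interval 1.2 to 1.89) that was not called.

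Neutrophil-like cells were lower in the KO-AAA library for the constitutive and inducible Hsp90 and for Hspa8. Hspa8 was 768 CPM in WT-AAA and 430.4 in KO-AAA, a ratio of 0.561 (95% interval 0.518 to 0.607). Hsp90aa1 was 1151 and 688, a ratio of 0.598 (95% interval 0.561 to 0.637), and Hsp90ab1 646 and 407, a ratio of 0.631 (95% interval 0.58 to 0.685). These were the 3 cytosolic genes called, all lower, against 6.36% of all measured genes called lower and 5.04% higher. Hspa1a (443 and 420.3) and Hspa1b (252 and 235) were not called over the class. The 2 neutrophil clusters went opposite ways for Hspa1a. It was 524 and 591 in the larger, a ratio of 1.13 (95% interval 1.03 to 1.24). In the smaller it was 126 and 25.8, a ratio of 0.205 (95% interval 0.112 to 0.356) from 60 and 17 UMIs. Hspa1b had ratios of 1.06 (95% interval 0.936 to 1.2) in the larger and 0.759 (95% interval 0.398 to 1.45) in the smaller, from 21 and 22 UMIs in the latter. Both Hspa1b intervals held 1, and the split of UMIs between the 2 copies is uncertain. The cytosolic sum was 4466 and 3281, with a median log2 ratio of -0.18 beside -0.05 over all genes. Both neutrophil clusters had lower Hspa8, at 845 and 507 in the larger, led by Il23a and Hcar2, and 467 and 253 in the smaller, led by Rdh12 and S100a9. Hsp90aa1 was 1365 and 879 in the larger and 314 and 246 in the smaller. The larger cluster held 79.7% of WT-AAA and 69.1% of KO-AAA neutrophil-like cells. Clustering each library on its own turned Hsp90aa1 to a log2 ratio of 0.21, and the median of the cytosolic genes to 0.24. The immediate early genes summed to 23917 and 20366, and their part was not tested. Among endoplasmic reticulum genes Creld2 alone was called, and the median was -0.11. Atf4 was 331 and 225 and Hspa5 1352 and 1149.

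In monocyte-like cells 3 cytosolic genes were called higher in KO-AAA, where 5.22% of all measured genes were. Hspa1a was 107 and 256, Hspa1b 83.5 and 179 and Dnaja1, an Hsp40 cochaperone, 501 and 769. The 8 resident-type macrophage markers, whose cells have the highest Hspa1a of the large classes, were all seen in both libraries of the monocyte-like class and summed to 1391 and 2597. With cells of at least 1000 UMIs the log2 ratio of Hspa1a was -0.17 and that of Hspa1b -0.38. With each library clustered on its own they were -0.25 and -0.37. The part of the resident-type macrophage transcripts in the monocyte-like values was not tested.

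Platelet-like cells had 6 cytosolic genes called higher and 1 lower, among 11 measured, where 6.7% of all measured genes were called higher and 9.34% lower. Hspa1a was 164 and 544, from 73 and 170 UMIs, and Hsp90aa1 408 and 707. The class was shallow, with medians of 1146 and 1015 UMIs per cell. Its 7 platelet markers summed to 19305 and 13758 and the 13 fibroblast markers to 3033 and 3499. Without its cells of highest doublet score, Hspa1a and Hspa1b both had a log2 ratio of -0.71. In B cell-like cells Hspa1a was 48.4 and 113, called higher from 29 and 68 UMIs, beside resident-type macrophage markers of 305 and 2266. Thinning to 1000 UMIs per cell turned this to a log2 ratio of -1.19, and the thinned share of B cell-like cells with Hspa1a or Hspa1b was 9.85% and 4.91%. Hsph1 was 175 and 53.2 there, called lower, where 10.7% of all measured genes were called lower. In conventional dendritic-like cells Hsph1 was 154 and 94.3, called lower, and Hspb1 9.96 and 25.8, called higher, beside 7.46% and 5.59% of all measured genes. The 13 fibroblast markers, all seen in both libraries of this class, summed to 524 and 1628, and their part in the Hspb1 value was not tested. In endothelial-like cells Hspa1b was called lower, at 566 and 311, beside 6.01% of all measured genes called lower and 5.13% higher. Hspa1a was 470.3 and 429 there and was not called, and the split of UMIs between these copies is uncertain. Hsf1, the regulator of the response, was measured in 2 classes. It was 10.4 and 8.51 in fibroblast-like cells. In inflammatory macrophage-like cells it was 10.3 and 5.16, called lower where 3.03% of all measured genes were called lower and 2.8% higher. In both classes only the WT-AAA level reached the 10 CPM floor, which favours values lower in KO-AAA. Over 10 alternatives the log2 ratio in inflammatory macrophage-like cells ran from -1.07 to -0.07, and it was past 1.5-fold in 9.

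**Figure D4:**
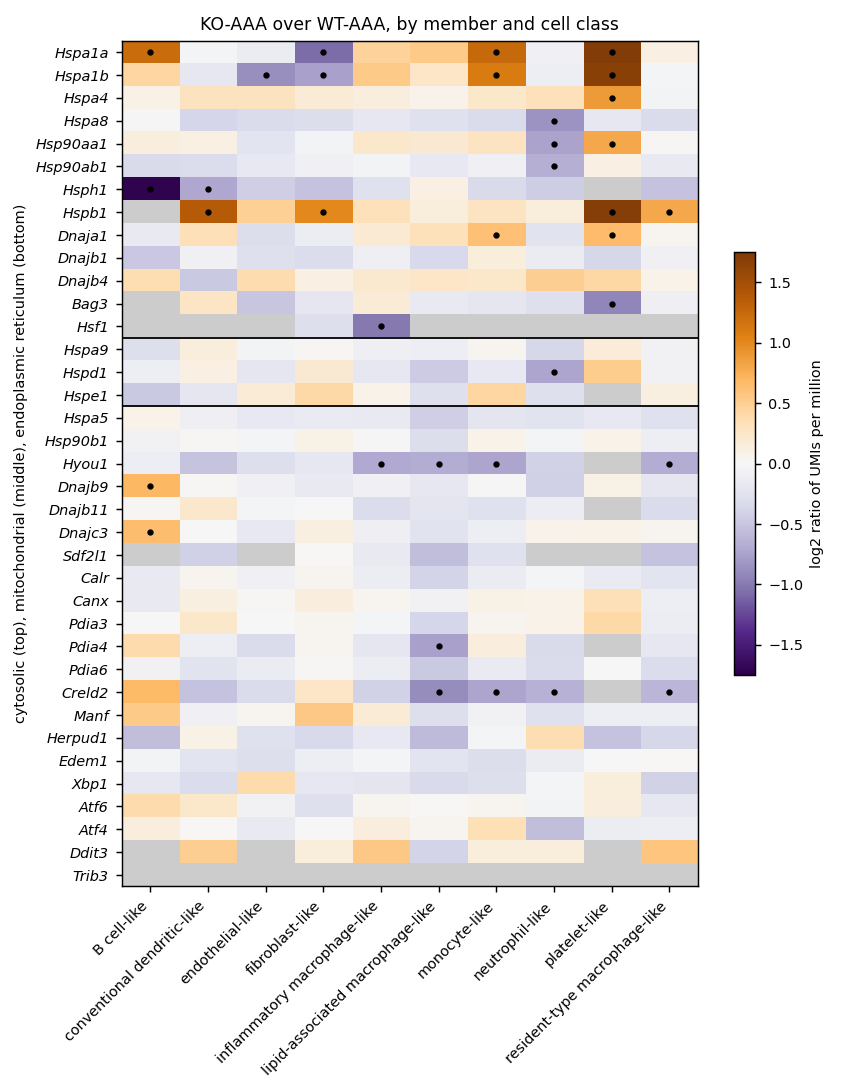
Log2 ratio of KO-AAA over WT-AAA for the 37 genes (vertical axis, grouped by compartment) in the 10 large classes (horizontal axis). Orange is higher and purple lower in KO-AAA, grey is not measured, and dots mark ratios past 1.5-fold with an interval on one side of 1. Hspa1a is orange in monocyte-like and purple in fibroblast-like cells, and Hyou1 is purple in each class where it was measured.

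Among the clusters left unnamed, a shallow one led by Slc39a12 and Pde7b, with a median of 1008 UMIs per cell over both libraries, had Hspa1a at 1223 and 1495. The 8 resident-type macrophage markers summed to 4994 and 4349 there, and their part was not tested. Its Hspa5 level, 2560.3 and 2351, lay within the range of the large classes.

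Over all kept cells, Hspb1 was the 1 gene called, at 128 and 353, where 4.88% of all measured genes were called higher and 3.92% lower. The KO-AAA library also had more fibroblast-like cells, 1540 of 8784 against 959 of 7619, and within that class the Hspb1 ratio was 2.01 against 2.75 over all kept cells. The pooled median log2 ratio was 0.18 for the cytosolic and 0.01 for the endoplasmic reticulum genes, beside -0.07 over all genes.

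Within fibroblast-like cells, most cytosolic genes were higher in cells rich in Hspa1a and Hspa1b, and few endoplasmic reticulum genes were. Cells thinned to 1000 UMIs were split into those with at least 3 UMIs of Hspa1a and Hspa1b, called rich here, and those with none, a threshold chosen after seeing the data. Rich cells were 32.7% of WT-AAA and 35.4% of KO-AAA resident-type macrophage-like cells, 8.48% and 5.02% of fibroblast-like cells, and 2.24% and 1.37% of neutrophil-like cells. In fibroblast-like cells, 9 of the 10 other cytosolic genes with at least 30 UMIs had an interval above 1 for rich over none in WT-AAA, with a median ratio of 2.07. In KO-AAA it was 9 of 10, with a median of 1.73. Of the 19 endoplasmic reticulum genes, 0 in WT-AAA and 1 in KO-AAA had an interval above 1, with medians of 0.863 and 0.883. The share of all genes with such an interval was not computed. These counts, and those of the other classes below, therefore only set the cytosolic beside the endoplasmic reticulum genes.

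Hsph1 had the largest such ratio in fibroblast-like cells, at 3.97 (2.7 to 5.78) in WT-AAA and 4.01 (2.66 to 5.9) in KO-AAA. Dnajb1 had 2.49 (1.84 to 3.34) and 2.15 (1.52 to 2.97), and Bag3 2.44 (1.91 to 3.09) and 1.73 (1.28 to 2.28). Hspb1, which differed between the libraries in the opposite direction to Hspa1a, was also higher in rich cells within each library, at 2.06 (1.53 to 2.74) and 2.33 (1.9 to 2.83). Hspa4, a constitutive Hsp110, had ratios of 0.783 (0.394 to 1.42) and 0.718 (0.353 to 1.31). Hspa5 had 1.06 (0.93 to 1.21) and 1.21 (1.05 to 1.38), and Hsp90b1 1.01 (0.858 to 1.18) and 0.845 (0.709 to 1.0). The immediate early genes summed to 27839.5 in rich cells against 30948 in WT-AAA fibroblasts with none and 24792 in rich cells against 24984 in those of KO-AAA. In inflammatory macrophage-like cells the sum was 48143 in rich cells against 23223 in WT-AAA cells with none and 41705 in rich cells against 21451 in those of KO-AAA. The resident-type class had 30409.8 in rich cells against 25552 in WT-AAA cells with none and 29338 in rich cells against 25316 in those of KO-AAA. The sum was thus higher in rich cells of both macrophage classes, and not in rich fibroblasts. Their part in the ratios was not tested.

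The median ratios in resident-type macrophage-like cells were 1.8 and 2.1 for the cytosolic and 1.02 and 1.05 for the endoplasmic reticulum genes, of which 1 of 17 and 3 of 16 had an interval above 1. In inflammatory macrophage-like cells 3 of 19 and 2 of 16 did, with medians of 1.3 and 1.13. There Hspa5 had 1.79 (1.51 to 2.11) in WT-AAA and 1.46 (1.2 to 1.76) in KO-AAA, and Dnajb9 3.01 (2.07 to 4.27) and 2.71 (1.76 to 4.07). The intervals of both genes lay above 1 in each library. In the resident-type class Hsp90aa1 had 2.34 (2.01 to 2.72) in WT-AAA and 3.11 (2.73 to 3.56) in KO-AAA. In the 26 rich neutrophil-like cells of WT-AAA, Hsp90aa1 stood at 12846 against 657 in cells with none, a ratio of 19.5 (17.1 to 22.3), and Hsph1 at 1038 against 55.6. Resident-type macrophage markers were 38.5 in these rich cells and 187 in the cells with none. In these rich cells 38.5 is the level of 1 UMI, so the value is too small to compare. The part of resident-type macrophage transcripts in the neutrophil-like ratios was not tested. Cells of 1 library are not replicates, so these ratios describe each library.

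**Figure D5:**
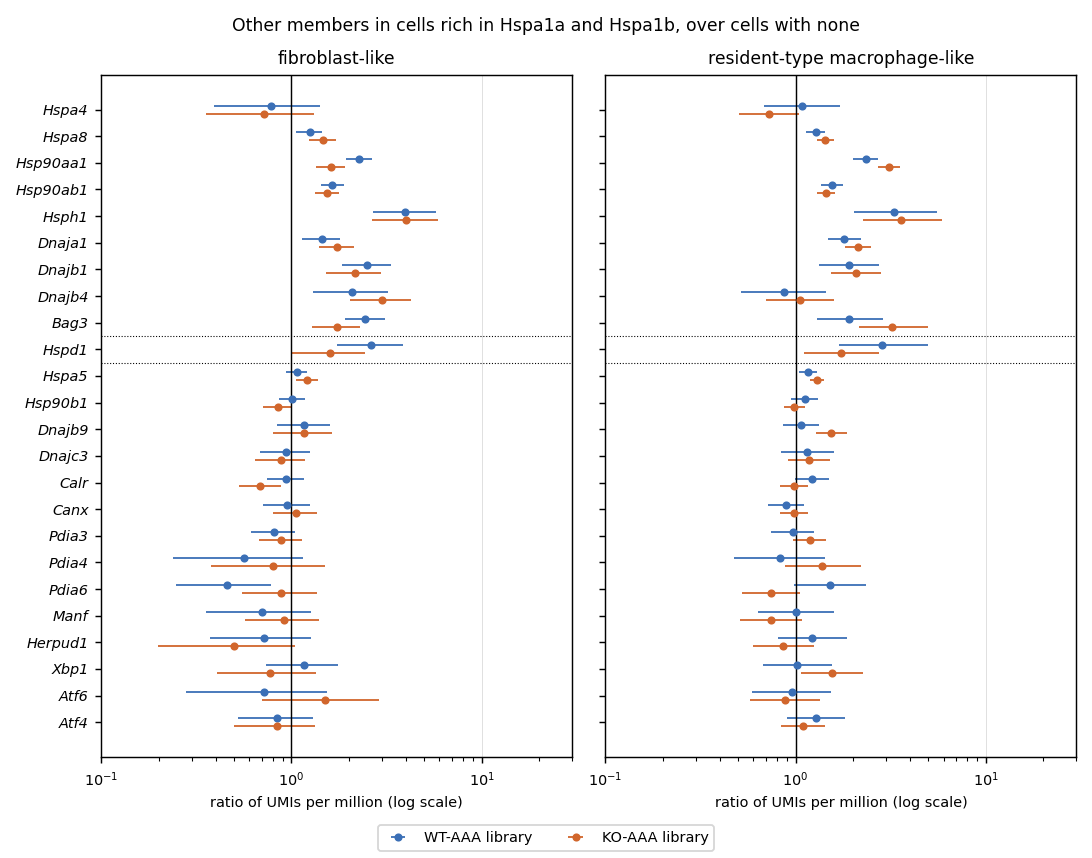
Ratio of each gene's level in cells with at least 3 UMIs of Hspa1a and Hspa1b over cells with none, at 1000 UMIs per cell (horizontal axis, log scale), for the genes (vertical axis) with enough UMIs in both classes and libraries. Points are single libraries and bars 95% intervals for counting error. Cytosolic genes such as Hsph1 lie right of 1, and endoplasmic reticulum genes such as Hsp90b1 lie near 1, in both classes.

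The stress effector genes were seen in few cells. Ddit3, or its target Trib3, a pseudokinase, had a UMI in 2.38% of WT-AAA cells (95% exact interval 2.03 to 2.78) and 2.79% of KO-AAA cells (2.42 to 3.19) after thinning, and in 8.62% and 11.1% before. Among the 4 main classes neutrophil-like cells had the largest thinned shares, 3.97% and 4.49%, and lipid-associated macrophage-like cells had 1.85% and 1.43%. Trib3 was measured in no class and reached 2.29 and 1.55 CPM over all kept cells. Atf4, whose activity is set mainly by translation, was 292 and 314, and Xbp1, whose activity depends on splicing that gene counts do not show, 223 and 224.

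Of the mitochondrial chaperones 1 was called, in 1 of the 10 classes. In that class, the neutrophil-like, 6.36% of all measured genes were called lower and 5.04% higher. Hspd1, the Hsp60 chaperonin, was 208 and 238 in fibroblast-like and 69.9 and 42.1 in neutrophil-like cells, where it was called lower with a ratio of 0.602 (95% interval 0.461 to 0.782). Its partner Hspe1 was 63.7 and 83.8 in fibroblast-like and 14.9 and 12.3 in neutrophil-like cells. Hspa9, the mitochondrial Hsp70, was 119 and 121 in the former and 105 and 81.9 in the latter, and was called in none of the 10 classes.

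A list of 80 further genes of these pathways, made of cochaperones, chaperonin subunits, mitochondrial proteases, sensors and degradation and translocation factors, is given with the share of all measured genes called in the same class. In fibroblast-like cells 74 were measured, 1 was called higher and 0 lower beside 3.53% and 8.25% of all genes, with a median log2 ratio of -0.02. The called gene was Spcs1, a subunit of the signal peptidase (104 and 159). In lipid-associated macrophage-like cells 66 were measured, 1 called higher and 1 lower beside 2.77% and 4.31%, with a median of -0.13. The lower one was Syvn1, the HRD1 ubiquitin ligase that clears misfolded protein (69.4 and 39.6), and the higher one Hspa2, an Hsp70 (17 and 31.5). In resident-type macrophage-like cells 65 were measured, 1 called higher and 4 lower beside 2.6% and 3.65%. Syvn1 was again lower (60.5 and 31.4), as was Eif2ak3, which encodes PERK (29.1 and 18.4), and Hspa2 again higher (25.5 and 39.3). In neutrophil-like cells 55 were measured, 0 called higher and 2 lower beside 5.04% and 6.36%, with a median of -0.14. The called genes were Sesn2, an ATF4 target (58.8 and 31.6), and Chordc1, an Hsp90 cochaperone (26 and 16.5). The endoplasmic reticulum genes of this list had a median of -0.16 in lipid-associated macrophage-like and 0.01 in fibroblast-like cells.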

How the data were processed

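The deposited files hold whole-number UMI counts per gene and cell barcode, 1 matrix per library. CASAVA 1.8, STARsolo and build mm10 are listed without roles, per the submitters' processing notes, and any filter by the authors is not stated. The cell filters were 500 UMIs and 250 genes as minimum and 25% mitochondrial UMIs as maximum. Scrublet, in scanpy 1.11.5, marked no doublets and so did not work here, and doublets remain. Counts were scaled to 10000 per cell, and 2000 variable genes (130 list genes kept out), 30 components, 15 neighbours and Leiden clustering (leidenalg 0.10.2, resolution 1) gave 24 clusters. A cluster took the name of its best of 23 marker lists when at least 3 markers were seen in at least 25% of its cells. It stayed unnamed when another list led it or when no marker of its list was among its 10 leading genes, the latter added after the clusters were seen. Raw counts were summed by class and library, with exact Poisson intervals, and ratios had exact conditional binomial intervals at 95%. The intervals were checked only on simulated counts with Poisson error, which leave out the spread between cells and between mice. Named with values were 11 genes fixed by name, then the called genes of each main class, and others chosen after their values were seen. The 37 genes and all lists were chosen with earlier results of these data known. No file shows separate mice, so with 1 library per group no test was made. Alternatives covered cell filters, resolution, clustering, scaling (edgeR 4.0.16 TMM), thinning and shared barcodes.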

Additional observations from a re-analysis of the deposited data

How the results depend on the processing

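No paired analysis was possible because each group has 1 library. Of 36 called values, 28 kept their direction under each alternative that could be run and 10 also stayed past 1.5-fold, among them Hspa1a, Hspa1b and Hspb1 in fibroblast-like cells. The cause of the changes below was not tested. In fibroblast-like cells the median log2 ratio of the cytosolic genes was -0.27 at Leiden resolution 2, -0.031 with TMM and -0.039 with median-of-ratios factors, and that of the endoplasmic reticulum genes 0.17 and 0.16 with these factors, by which all genes moved to 0.05 and 0.04. In resident-type macrophage-like cells the cytosolic median was 0.051 and 0.040 with these factors and the endoplasmic reticulum median -0.11 with TMM. In lipid-associated macrophage-like cells the endoplasmic reticulum median was -0.20 at resolution 0.5, and no such class was found with at most 10% mitochondrial UMIs or with the list genes among the variable genes. Clustering each library on its own gave a neutrophil-like cytosolic median of 0.24, and reversed Hsp90aa1 in neutrophil-like (0.21), Dnajc3 in B cell-like (-0.65), and Hspa1a (-0.25) and Hspa1b (-0.37) in monocyte-like cells. At least 1000 UMIs per cell reversed the last 2 to -0.17 and -0.38. Thinning to 1000 UMIs reversed Hspa1a in B cell-like (-1.19) and Creld2 in neutrophil-like cells (0.25). Leaving out the highest doublet scores reversed Hspa1a and Hspa1b in platelet-like cells, to -0.71 each. The share of cells with a UMI of Hspa1a or Hspa1b was 37.9% and 40.6% at 2000 UMIs per cell and 44.0% and 48.1% without thinning, and that of Ddit3 or Trib3 3.66% and 4.39%, and 8.62% and 11.1%. Leaving out barcodes shared by both libraries, an alternative chosen after seeing the data, moved none of these results. Not run, for want of 100 cells in each library, were endothelial-like and platelet-like cells at 1000 UMIs. Endothelial-like cells with each library clustered on its own were not run for the same reason. No cluster took the name for B cell-like cells at 1000 UMIs. The same held for inflammatory macrophage-like cells at resolution 0.5 and with the list genes among the variable genes. With each library clustered on its own, 1246 WT-AAA and 0 KO-AAA cells were named inflammatory macrophage-like. Depth limits low genes such as Hsf1 and Trib3 and the small classes.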
